A study of Homo sapiens with 36 samples.

Results

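The miRNAs of HT-29 cells were compared between cells given a derivative of oxyquinoline (OD) and control cells. HT-29 is an established line of epithelial cells from a human colorectal adenocarcinoma. The 6 samples, 3 of each group, were chosen by the line, treatment and RNA class in their labels, out of 36 samples in the series. OD, known here only by a supplier's catalogue number, was given at 5 µM for 24 h in dimethyl sulfoxide (DMSO, 0.5 µl per ml of medium by the labels), and the control medium held the same volume of DMSO. The study used OD to stabilise hypoxia-inducible factor (HIF) by blocking the enzymes that lead to its breakdown, and the comparison asked which miRNAs changed with it. Beside them stand HT-29 cells given CoCl2 at 300 µM for 24 h, HT-29 mRNA libraries of the same treatments, and Caco-2 cells, another colorectal line, grown for 21 days before the same OD treatment. The labels do not say whether replicates came from separate cultures, so the tests measure the spread between these samples, which may be technical.

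A miRNA is cut from a hairpin in a longer transcript by DROSHA and its partner DGCR8, and the hairpin's loop is then removed by DICER1. Of the resulting pair of strands, the 5p and the 3p arm, one is usually kept by an Argonaute (AGO) protein as the major arm, and the other, the minor arm, is mostly lost. Bases 2 to 8 of a mature miRNA, the seed, pair with target mRNAs. Many hairpins lie in introns or exons of a host gene and are made from its transcript. In hypoxic cells miR-210-3p is the best known miRNA raised by HIF.

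The mature sequences below, from RefSeq on GRCh38.p14, are those that the results turn on, with the seed in capitals. RefSeq names matched 528 of the 600 miRNAs tested and 37 of the 40 that changed. The first set holds the miRNAs with the largest well-counted changes, of which miR-4521, miR-92a-1-5p and miR-7974 were lower with OD and the others higher.
miR-4521: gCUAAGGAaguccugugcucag
miR-92a-1-5p: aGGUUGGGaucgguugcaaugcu
miR-7974: aGGCUGUGaugcucuccugagccc
miR-12135: uAAAGGUUuguuuguaaa
miR-210-3p: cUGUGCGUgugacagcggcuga
miR-449c-5p: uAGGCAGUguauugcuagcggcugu

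The second set shows changed minor arms that share a seed. let-7a-3p, made from 2 hairpins, let-7b-3p and let-7f-1-3p share the seed UAUACAA, which among tested miRNAs was found in 1 more, miR-98-3p. The 3p arms of both miR-26a hairpins share CUAUUCU, and the 3p arms of both miR-181b hairpins share UCACUGA.
let-7a-3p: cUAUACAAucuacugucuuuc
let-7b-3p: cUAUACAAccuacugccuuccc
let-7f-1-3p: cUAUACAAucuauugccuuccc
miR-98-3p: cUAUACAAcuuacuacuuuccc
miR-26a-1-3p: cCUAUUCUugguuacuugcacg
miR-26a-2-3p: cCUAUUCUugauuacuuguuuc
miR-181b-2-3p: cUCACUGAucaaugaaugca
miR-181b-3p: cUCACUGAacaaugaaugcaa

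Total counts were 9580744, 13092513 and 8860459 in the control libraries and 8530934, 9186519 and 466975 in the OD libraries. OD replicate 3 was thus the shallowest, and 3 counts in it, the floor used here, stood for 6.42 CPM (counts scaled to 1e+06 reads per library) against 0.352 and 0.327 in the other OD libraries. Its log2 levels over 376 miRNAs with a mean of at least 50 counts correlated with those of OD replicates 1 and 2 at Pearson's r of 0.985 each, below the 0.997 between those replicates and above the 0.978 to 0.981 with the controls. The correlation runs across miRNAs of 2 libraries, which are not independent replicates. Results are also given without OD replicate 3 where that changed a call or the passing of the FDR limit, and for some other values. The rest are those of all 6 libraries. The miRNAs that mark gut epithelium (miR-192, miR-194, miR-215, miR-200c, miR-141 and miR-375) summed to 85600 to 89700 CPM in controls and 82200 to 86200 with OD, while the sums in any library were at most 10.7 CPM for erythroid, 21.4 for muscle, 6.32 for fibroblast and 2.58 for liver markers. Leukocyte markers summed to 134 to 193 CPM in controls and 150 to 197 with OD, and neural markers to 2890 to 3410 and 2660 to 2690 CPM. Most of the leukocyte sum was miR-142-3p and miR-142-5p (means of 96.1 and 50.9 CPM in controls), and miR-223-3p had at most 1 count. Most of the neural sum was miR-128-3p (means of 3050 and 2750 CPM), while the miR-124 arms had 0 counts and miR-9-3p at most 7. The endothelial marker miR-126 summed to 92.3 to 116 CPM in controls and to more in every OD library, up to 154 CPM, and neither arm passed the test (miR-126-3p 0.38, FDR 0.0901, and miR-126-5p 0.79, FDR 0.0599, on the log2 scale). In the control and OD mRNA libraries of HT-29, EPCAM and KRT8, both epithelial, held at least 7596 and 34622 counts, and the leukocyte gene PTPRC at most 2. EGFL7, the host gene of miR-126, was higher with OD there (log2 fold change 2.1, FDR 1.96e-09). Of the endothelial genes, PECAM1 was lower (−0.61, FDR 0.0404) at 1.92 and 1.21 CPM, and VWF had at most 4 counts. Among the epithelial genes KRT20 was higher with OD (log2 fold change 1.38, FDR 2.34e-13) and VIL1 was lower (−1.16, FDR 6.27e-14), and the collagen gene COL1A1 was higher at a low level (1.62 and 6.39 CPM), while COL1A2 had 0 counts.

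OD moved a small number of miRNAs, in both directions, and the balance of rises and falls depended on the setting. At an FDR (Benjamini-Hochberg adjusted p of edgeR's quasi-likelihood test) under 0.05, 40 of 600 miRNAs changed. Of these, 16 were higher with OD, which is 2.67% of those tested, and 24 were lower, which is 4.0%. A call needed both that FDR and a change over 2-fold, and 8 were called higher (1.33%) and 10 lower (1.67%). Leaving out OD replicate 3 gave 17 calls (2.76% of the miRNAs then tested), 9 higher and 8 lower, of which 16 were shared with the 18 calls of all 6 libraries. With no filter on low counts 12 were called higher and 11 lower. The groups' levels did not overlap for 37 of the 40, against 21.0% of all miRNAs tested. The 40 were selected by a test on the same levels, so this separation is no added support. With library-size scaling in place of TMM, which sets the scale from the bulk of miRNAs, the limit was passed by 8 higher and 25 lower miRNAs. The main fit did not use the replicate number, although same-numbered libraries were taken to pair. FDR values and SEs are thus those of unpaired groups unless the block is named. With the replicate number as a block, 55 miRNAs passed the FDR limit, 28 higher and 27 lower, and 13 were called. Of the 40, 34 were among these 55, and the rest of the 55 passed with the block but not in the main fit.

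The largest well-counted fall was that of miR-4521. Its level was 489, 407 and 463 CPM in the control libraries and 104, 95.9 and 57.7 CPM in the OD libraries. The lowest control library lay far above the highest OD library, and OD replicate 3 was the lowest of all. The log2 fold change was −2.29 (SE 0.16, FDR 1.85e-10), and it was −2.19 without OD replicate 3. It passed the FDR limit in all 18 alternative settings tried, with log2 fold changes from −2.60 to −2.19. The hairpin is at chr17:8186945-8187004 on the plus strand of GRCh38, where no host gene was annotated.

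miR-210-3p rose from 386, 356 and 377 CPM to 1100, 920 and 676 CPM. All OD libraries were above all controls, with the shallow replicate 3 the nearest to them. The log2 fold change was 1.28 (SE 0.15, FDR 1.71e-06), and 1.42 without OD replicate 3. Its minor arm, miR-210-5p, had means of 3.42 and 5.09 CPM and did not pass the test, with a log2 fold change of 0.40 (FDR 0.538). The hairpin is at chr11:568089-568198 on the minus strand, in an intron of MIR210HG. That noncoding host RNA was higher in the mRNA libraries of OD-treated cells, with a log2 fold change of 0.58 (SE 0.11, FDR 0.00015).

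The largest rise was that of miR-12135, a short miRNA of 18 bases. It was read at 13.8, 14.1 and 19.8 CPM in controls and at 66.7, 54.6 and 55.6 CPM with OD, so that every OD library lay far above the highest control. The log2 fold change was 1.92 (SE 0.17, FDR 2.61e-08), and it was also 1.92 without OD replicate 3 (FDR 5.01e-06). Its hairpin is at chr15:73299910-73299979 on the plus strand, in an intron of NEO1, a netrin and RGM receptor gene. NEO1 mRNA was lower by a small amount, with means of 76.9 CPM in controls and 67.8 CPM with OD (log2 fold change −0.18, FDR 0.0024).

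miR-92a-1-5p, the minor arm of a hairpin of the miR-17-92 cluster, was at 34.4, 26.5 and 32.5 CPM in controls and at 12.9, 8.50 and 15 CPM with OD. The groups did not overlap, and the log2 fold change was −1.50 (SE 0.20, FDR 2.07e-05). miR-7974 was at 49.0, 76.9 and 47.4 CPM in controls and at 22.1, 24.8 and 21.4 CPM with OD. The controls were spread by a high replicate 2, while the OD libraries lay close together (log2 fold change −1.31, SE 0.19, FDR 5.23e-05). The hairpin of miR-92a-1-5p is at chr13:91351314-91351391 on the plus strand, in an exon of MIR17HG, and that of miR-7974 at chr19:11495544-11495622 on the minus strand, in an intron of ZNF653. ZNF653 mRNA did not pass the test (log2 fold change 0.22, FDR 0.32).

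Called falls with fewer counts were mostly minor arms. miR-26a-2-3p was at 12.6, 12.7 and 15.6 CPM in controls and 6.10, 6.17 and 2.14 CPM with OD (log2 fold change −1.20, SE 0.22, FDR 0.000781). miR-29b-1-5p was at 8.32, 7.05 and 8.23 CPM and then 4.30, 2.68 and 2.14 CPM (log2 fold change −1.19, SE 0.25, FDR 0.00313, but 0.133 with DESeq2). In both, OD replicate 3 held 1 count, and the other OD libraries alone lay below every control. miR-181b-2-3p had the lowest fold change of all, −2.53 (SE 0.42, FDR 0.000261), on 51, 31 and 36 counts in controls and 6, 5 and 0 counts with OD.

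miR-449c-5p belongs to the miR-34/449 family, known for regulators of the cell cycle. It was at 3.88, 4.98 and 4.32 CPM in controls and 12.2, 9.66 and 10.7 CPM with OD (log2 fold change 1.3, SE 0.22, FDR 0.000261). Its cluster neighbour miR-449a had 8, 11 and 10 counts in controls and 17, 24 and 0 with OD, so the groups overlapped through OD replicate 3, where a count of 0 allows up to 6.42 CPM (log2 fold change 1.35, FDR 0.0326, and 0.0808 with the replicate block). miR-34a-5p, which has the seed of miR-449a, GGCAGUG, was at 63.2 CPM in controls and 62.4 CPM with OD (log2 fold change 0.06, FDR 0.934). Both miR-449 hairpins lie in an intron of CDC20B, whose mRNA had at most 1 count in any control or OD library of HT-29 mRNA.

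**Figure D1:**
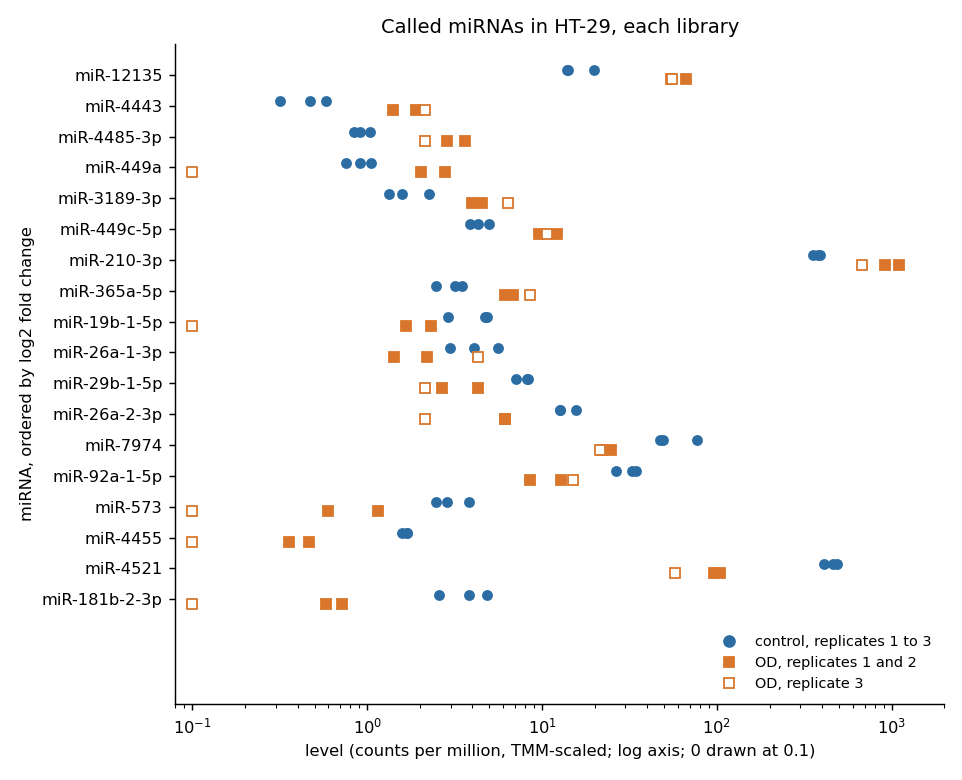
Levels of the 18 called miRNAs in each library, in CPM on a log axis, ordered by log2 fold change. Circles are the 3 control libraries, filled squares OD replicates 1 and 2, and open squares OD replicate 3, with 0 drawn at 0.1 CPM. OD replicate 3 sits at 0 for 5 miRNAs and among the controls for miR-26a-1-3p.

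The other called miRNAs had a mean under 50 counts. Higher were miR-4443 (1.81, FDR 0.0149), miR-4485-3p (1.76, FDR 0.00126), miR-3189-3p (1.33, FDR 0.00451) and miR-365a-5p (1.11, FDR 0.00383), each with its log2 fold change. Lower were miR-4455 (−2.0, FDR 0.0111), miR-573 (−1.82, FDR 0.00386), miR-26a-1-3p (−1.12, FDR 0.0395) and miR-19b-1-5p (−1.08, FDR 0.0427). With DESeq2 in place of edgeR none of these higher or lower miRNAs passed the FDR limit (lowest 0.235, miR-365a-5p). The calls of miR-4455, miR-4443, miR-26a-1-3p and miR-19b-1-5p did not pass with the replicate block (FDR 0.0512, 0.0879, 0.0965 and 0.101). miR-642a-3p, which rose by 0.95 on the log2 scale (FDR 0.022), did not pass with the block either (0.0524). Levels this low rested on few reads: miR-4443 had 5, 7 and 3 counts in controls and 16, 12 and 1 with OD.

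The mature sequence of miR-4485-3p is also found in the mitochondrial genome.
miR-4485-3p: uAACGGCCgcgguacccuaa
A search of GRCh38 on both strands found 4 exact copies on 4 chromosomes, of which 1 lies at chrM:2563-2582 on the plus strand, in MT-RNR2, the gene of the large mitochondrial ribosomal RNA. Reads of that RNA and of the miRNA cannot be told apart by this sequence. miR-4485-3p had 11, 11 and 8 counts in controls and 24, 31 and 1 with OD. MT-RNR2 was also higher with OD in the mRNA libraries, with means of 8410 and 16500 CPM (log2 fold change 0.97, SE 0.05, FDR 1.02e-12). The part of MT-RNR2 fragments in the miRNA's rise was not tested. miR-1303 (35 copies) and miR-574-5p (32 copies) also matched many places, and miR-4455 matched 4. let-7a-3p matched its 2 hairpins, and the other changed miRNAs with a RefSeq sequence matched 1 place each.

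Changes under 2-fold that passed the FDR limit included abundant miRNAs. miR-23a-3p was at 1450, 1280 and 1480 CPM in controls and 2150, 1960 and 1900 CPM with OD, without overlap (log2 fold change 0.51, SE 0.13, FDR 0.0104). Its paralog miR-23b-3p shares the seed UCACAUU and had means of 947 and 916 CPM (log2 fold change −0.04, FDR 0.945).
miR-23a-3p: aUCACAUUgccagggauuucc
miR-23b-3p: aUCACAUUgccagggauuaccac
miR-22-3p was at 1120, 929 and 1050 CPM in controls and higher in every OD library, at 1580, 1430 and 1280 CPM (log2 fold change 0.47, SE 0.13, FDR 0.0236). With library-size scaling miR-23a-3p (FDR 0.11) and miR-22-3p (0.199) no longer passed, nor did miR-671-5p (0.126), miR-574-5p (0.184), miR-642a-5p (0.11), miR-642a-3p (0.067), miR-193b-3p (0.199) and miR-449a (0.0703). miR-22-3p also did not pass without control replicate 2 (0.0687), control replicate 3 (0.156), OD replicate 1 (0.228) or OD replicate 2 (0.189), and miR-23a-3p without control replicate 3 (0.0645), OD replicate 1 (0.104) or OD replicate 2 (0.088). miR-483-3p, known to come from an intron of the growth factor gene IGF2, was at 31.1, 32.4 and 29.2 CPM in controls and 57.1, 60.4 and 57.7 CPM with OD, so that its groups were far apart relative to their spread (log2 fold change 0.92, SE 0.15, FDR 0.00019).

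Among the smaller falls, miR-615-3p, encoded in the HOXC cluster, was at 809, 730 and 681 CPM in controls and had a mean of 465 CPM and a highest library of 482 CPM with OD (log2 fold change −0.67, SE 0.13, FDR 0.00115). miR-1303 was at 213, 219 and 201 CPM and then 96.2 to 127 CPM (log2 fold change −0.81, SE 0.14, FDR 0.000274). miR-181a-2-3p was at 66.5, 87.5 and 75.0 CPM and then 33.8, 46.6 and 34.2 CPM (log2 fold change −0.95, SE 0.16, FDR 0.000362). No OD library reached the lowest control for any of them. let-7a-3p, let-7b-3p and let-7f-1-3p fell by 0.57, 0.72 and 0.61 on the log2 scale (FDR 0.00468, 0.00217 and 0.0102), and miR-98-3p, with the same seed, had a log2 fold change of −0.20 (FDR 0.729).

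Removing OD replicate 3 changed few calls, although FDR values moved. That of miR-92a-1-5p was 2.07e-05 with it and 0.000346 without it, and that of miR-7974 was 5.23e-05 and 0.00122. All 40 miRNAs kept their direction, and their log2 fold changes moved by at most 0.14, with a median of 0.03. The calls of miR-26a-1-3p (FDR 0.0636) and miR-19b-1-5p (FDR 0.0903) were lost without it, and miR-193b-3p no longer passed the FDR limit (0.108). miR-492 was called only without it, with a mean of 9.6 counts over 5 libraries (log2 fold change 2.02, FDR 0.022), and had not passed the filter on low counts with all 6 libraries. miR-3909 passed the FDR limit only without it (0.0422, against 0.0537 with it). In OD replicate 3, 5 of the 40 changed miRNAs had 0 counts and 20 had under 10.

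**Figure D2:**
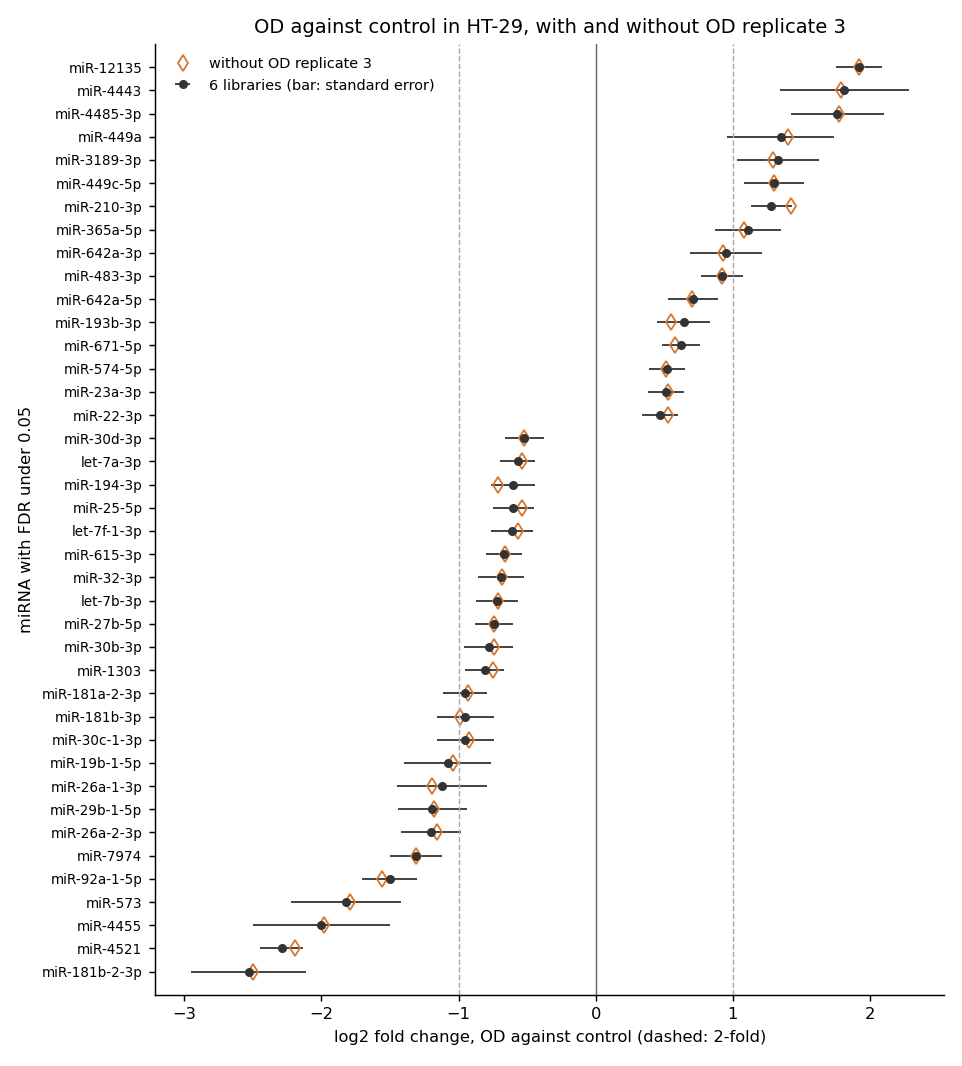
Log2 fold change of OD against control for the 40 miRNAs with an FDR under 0.05. Filled circles with standard errors use all 6 libraries, open diamonds leave out OD replicate 3, and dashed lines mark 2-fold. The diamonds lie within 0.14 of the circles.

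Minor arms took most of the falls. Pairs were formed only where RefSeq names matched both arms and both were tested. This gave 135 hairpins with 132 minor arms, the less abundant of each pair over the 6 libraries, and 127 major arms. The set is incomplete: miR-21 and miR-221, for example, had both arms tested but formed no pair. Of the 24 miRNAs that fell, 16 were minor arms, 0 were major arms, and 8 were not in such a pair. Those 8 included miR-30b-3p and miR-30d-3p, which had no RefSeq match. Their 5p arms were tested and more abundant (control means of 1510 against 25.3 CPM, and 24100 against 78.7 CPM). Of the 16 that rose, 2 were minor arms, 5 were major arms and 9 were not in a pair. Thus 12.1% of the minor arms in these pairs fell, against 4.0% of all miRNAs tested. The median log2 fold change was −0.15 over these minor arms, 0.04 over the major arms and 0.01 over all tested. With library-size scaling these medians were −0.24, −0.05 and −0.08, and without OD replicate 3 the first and second were −0.13 and 0.06. The comparison of arms was made after the values were seen, and it is a description with no test.

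The major partners of the 16 falling minor arms, 14 miRNAs, had log2 fold changes from −0.23 to 0.12, and 0 of them passed the FDR limit (lowest FDR 0.439). They were 19.2 to 5610 times as abundant as the minor arm. miR-92a-3p had means of 15900 and 13800 CPM (log2 fold change −0.20, SE 0.13) beside the change of −1.50 in its minor arm. miR-26a-5p, the shared major arm of both miR-26a hairpins, had means of 19400 and 19000 CPM (−0.03, SE 0.13). miR-181b-5p had means of 2230 and 2050 CPM (−0.12, SE 0.13), and let-7a-5p 21600 and 22400 CPM (0.06, SE 0.13). Pooled over all pairs formed, minor arms took 2.17%, 2.08% and 2.15% of the counts in the control libraries and 1.82%, 1.78% and 1.80% in the OD libraries. The OD libraries lay below every control library, the shallow one included, and this share does not depend on scaling between libraries. The most abundant minor arms weigh most in it, miR-200a-5p (means of 3200 and 2610 CPM, FDR 0.457) and miR-10a-3p (2110 and 1680 CPM, FDR 0.158), and neither passed the test. The median log2 ratio of minor to major arm, over 92 hairpins with at least 50 mean counts in the minor arm, weighs hairpins equally. It was −4.54, −4.38 and −4.63 in controls and −4.68, −4.72 and −4.87 with OD.

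**Figure D3:**
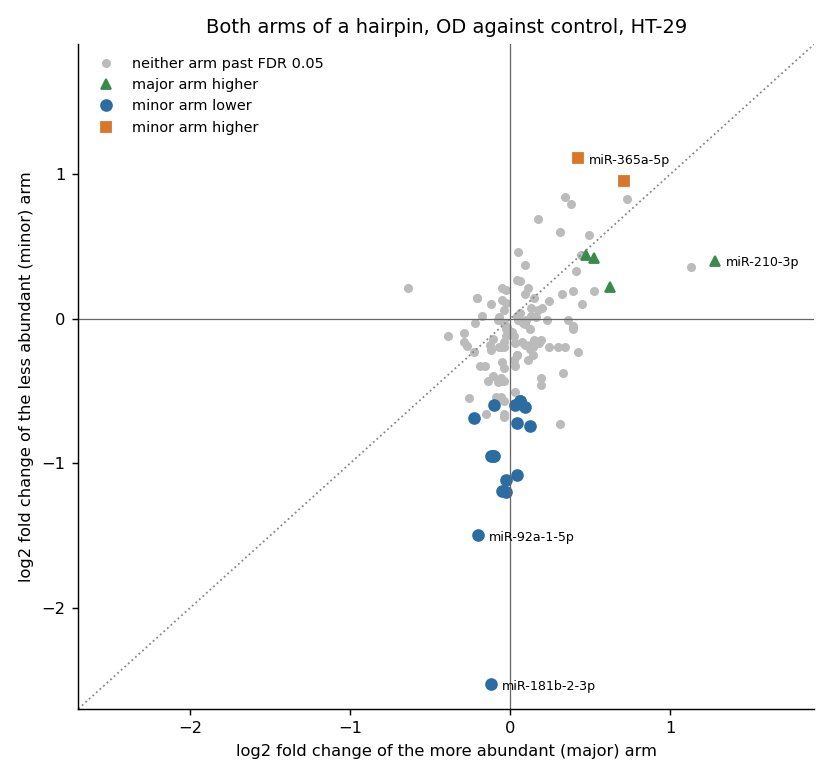
Log2 fold change of the minor arm (vertical) against that of the major arm (horizontal) for 135 hairpins, OD against control. Blue circles are the minor arms that fell, orange squares those that rose, green triangles hairpins whose major arm alone rose, and the dotted line marks equal change. The blue circles lie below 0 on the vertical axis and from −0.23 to 0.12 on the horizontal axis.

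The host genes were read in the mRNA libraries of the same treatments, in which OD raised 34.3% and lowered 35.4% of 15382 genes at an FDR under 0.05. A host that passed the test is thus the common case. MIR17HG, the noncoding transcript that carries the miR-17-92 cluster, was at 6.2, 7.11 and 5.56 CPM in controls and 0.823, 1.98 and 1.51 CPM with OD (log2 fold change −2.13, SE 0.21, FDR 3.82e-08). Every OD library was well below the controls. Of the mature miRNAs of that cluster, only the minor arms miR-92a-1-5p and miR-19b-1-5p fell, and miR-17-3p, miR-18a-3p and miR-20a-3p had log2 fold changes of −0.14, −0.10 and −0.44 (FDR 0.824, 0.852 and 0.293).

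Some other hosts of falling minor arms were lower as well. CTDSPL, a phosphatase gene that hosts miR-26a-1, was at 123, 116 and 127 CPM in controls and 63.3, 70.2 and 70.2 CPM with OD (log2 fold change −0.85, SE 0.05, FDR 4.72e-11). NFYC, a transcription factor subunit gene that hosts miR-30c-1, had 62.5 and 36.2 CPM (−0.79, SE 0.06, FDR 1.41e-09). AOPEP, an aminopeptidase gene that hosts miR-27b, had 26.6 and 13.1 CPM (−1.04, SE 0.10, FDR 1.02e-08). MIR194-2HG had 8.57 and 4.49 CPM (−0.93, SE 0.13, FDR 2.49e-06). Against these, CTDSP2, the host of miR-26a-2, was higher (0.25, SE 0.05, FDR 0.000214) while miR-26a-2-3p fell, and LINC-PINT, the host of miR-29b-1, was higher too (0.50, SE 0.18, FDR 0.019), although not in every alternative (highest FDR 0.108). MCM7 and TMEM245, which host miR-25 and miR-32, had log2 fold changes of −0.09 and 0.08 (FDR 0.0961 and 0.174), the latter −0.05 with library-size scaling, which shifted the median of all genes by −0.12. Other minor arms from the lower hosts did not pass. They were miR-23b-5p (−0.57, FDR 0.168) and miR-24-1-5p (−0.07, FDR 0.934) of AOPEP, miR-30e-3p (−0.19, FDR 0.704) of NFYC and miR-192-3p (0.06, FDR 0.948) of MIR194-2HG.

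Hosts of rising miRNAs were mostly higher. GIPR, the receptor of an intestinal hormone, hosts miR-642a and had means of 5.64 and 17.8 CPM (log2 fold change 1.63, SE 0.11, FDR 9.96e-11), and both arms of miR-642a rose. FAM114A1, the host of miR-574, had 19.2 and 52.3 CPM (1.45, SE 0.07, FDR 9.56e-13). GDF15, a stress-induced cytokine gene that hosts miR-3189, had 313 and 662 CPM (1.08, SE 0.08, FDR 2.55e-10). MIR22HG had 8.70 and 19.2 CPM (1.11, SE 0.13, FDR 2.34e-07). MIR193BHG, the host of miR-193b and miR-365a, was higher on a mean of 11 counts (1.19, SE 0.38, FDR 0.00959), although not in every alternative (highest FDR 0.0977). CHPF2 was lower (−0.63, SE 0.07, FDR 7.04e-08), although miR-671-5p from its exon rose by 0.62 on the log2 scale (FDR 0.00568). NEO1, the host of miR-12135, was lower too (−0.18, FDR 0.0024), although that miRNA had the largest rise.

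Over 98 hairpins with both arms and a host of at least 50 mean counts in the mRNA libraries, the log2 fold changes of host and minor arm correlated with Pearson's r of 0.52 and Spearman's rho of 0.47. For host and major arm these were 0.37 and 0.32. Minor arm and host had the same sign in 70 of the 98, and major arm and host in 53. With the 68 hairpins whose minor arm had a mean of at least 50 counts, r was 0.37 for the minor and 0.39 for the major arm, while the sign was shared in 48 and 35 of them. Without the sparsely counted arms the correlations were thus close to each other, and the counts of shared signs still differed. The hairpins share 76 hosts, and the correlations describe these libraries across hairpins.

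**Figure D4:**
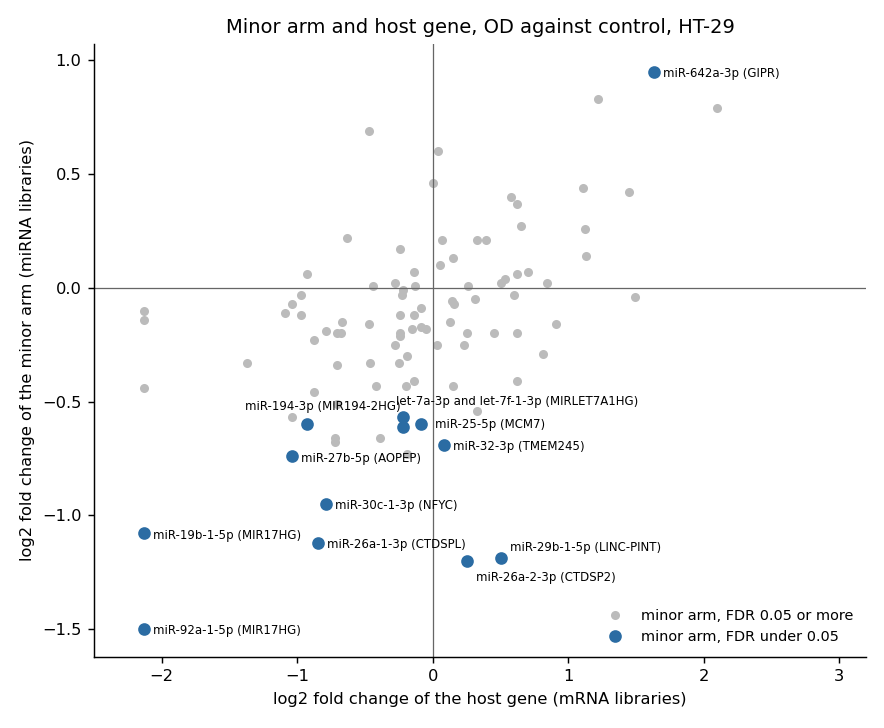
Log2 fold change of the minor arm in the miRNA libraries (vertical) against that of its host gene in the mRNA libraries (horizontal), OD against control in HT-29, for 98 hairpins. Blue points are minor arms with an FDR under 0.05, labelled with their hosts. Points of MIR17HG stand at −2.13 on the horizontal axis, and their minor arms range from −1.50 to −0.10.

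Genes of the miRNA pathway changed in both directions in the mRNA libraries. DGCR8, the partner of DROSHA, was at 92.6, 98.1 and 94.2 CPM in controls and 41.4, 47.1 and 45.5 CPM with OD, with no overlap (log2 fold change −1.09, SE 0.05, FDR 1.36e-12). DROSHA, the nuclease that frees the hairpin, was at 129, 120 and 108 CPM and then 74.7, 76.6 and 75.0 CPM (−0.65, SE 0.06, FDR 6.91e-09). DICER1, which cuts off the loop, was at 59.4, 60.2 and 60.2 CPM in controls and rose to 77.8, 81.7 and 79.6 CPM (0.41, SE 0.05, FDR 2.85e-07). Among the Argonautes, AGO2 (0.23), AGO3 (0.26) and AGO4 (0.22) were higher and AGO1 was lower (−0.15), each at an FDR of at most 0.0204. With library-size scaling AGO2 and AGO4 had log2 fold changes of 0.10 and 0.09 and did not pass. AGO1 did not pass in some alternatives (highest FDR 0.155). TUT7, which adds uridines to miRNA ends, was higher (0.50, FDR 4.14e-08), TUT4 was lower (−0.29, FDR 0.000616), and the exporter gene XPO5 had a log2 fold change of −0.06 (FDR 0.328). LIN28A and LIN28B, blockers of let-7 processing, had 0 counts in all 6 mRNA libraries.

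Families were described by counts and medians beside the median of 0.01 over all 600, of which 2.67% rose and 4.0% fell. Lists with 1 changed member lie within 1 member of these shares. Of 10 tested miRNAs of the hypoxia-linked list, miR-210-3p alone changed, and the list's median was 0.03. The others included miR-103a-3p (0.08, FDR 0.869), miR-429 (−0.06, FDR 0.914), miR-107 (−0.10, FDR 0.850) and miR-155-5p (0.30, FDR 0.225). In the miR-17-92 list and its paralogs 3 of 20 fell and 0 rose (median −0.11). In the miR-181 list 3 of 9 fell (median −0.12), in the miR-30 list 3 of 10 (median −0.27), in the let-7 list 3 of 17 (median 0.04), and in the miR-26 list 2 of 5 (median −0.51). These falls were of minor arms or of miR-30b-3p and miR-30d-3p, which had log2 fold changes of −0.78 (FDR 0.00727) and −0.52 (FDR 0.0191).

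In other lists single members moved. The miR-23/27/24 list had 1 higher (miR-23a-3p) and 1 lower (miR-27b-5p, −0.74, FDR 0.00137) of 10, with a median of 0.04, and the miR-29 list had 1 lower of 7, miR-29b-1-5p, with a median of −0.05. Of 15 intestinal epithelial miRNAs and of 7 p53-induced ones, the same miRNA fell, miR-194-3p (−0.60, FDR 0.0152), whose groups overlapped through OD replicate 3 (medians 0.03 and 0.06). None passed the FDR limit in the lists of the miR-200 family (0 of 9, median −0.01), the NF-kB-induced (0 of 7, 0.25), ERK-linked (0 of 6, 0.16), miR-15/16 (0 of 9, −0.05), miR-183 cluster (0 of 5, 0.00), miR-99/100 and miR-125 (0 of 8, 0.21), miR-148 family (0 of 6, 0.23) and SREBF intron miRNAs (0 of 3, 0.04). The 10 most abundant miRNAs, which held 60.9% of the control level, had log2 fold changes from −0.05 to 0.25, and 0 of them passed the FDR limit (lowest 0.447). miR-21-5p led them with 148000 ± 21400 CPM in controls and 177000 ± 9540 CPM with OD (SD, n = 3).

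The labels give DMSO for control and OD but name water as the solvent of CoCl2, while the study's methods, written for Caco-2, add DMSO to the CoCl2 medium as well and at a higher share. By the labels, solvent and CoCl2 cannot be told apart. In HT-29 cells given CoCl2, which share the control libraries, miR-210-3p had a log2 fold change of 1.27 and miR-4521 of −1.31 against control. miR-92a-1-5p had −2.65 and miR-7974 had −1.74. miR-12135, higher with OD, had −0.76 with CoCl2 (FDR 0.0383). CoCl2 replicate 1 held 34043 counts, and without it these values were 1.24, −1.33, −2.65, −1.74 and −0.79. In Caco-2 cells given OD, miR-210-3p rose by 0.68 (FDR 0.00423) and miR-12135 by 1.22 (FDR 0.00423) on the log2 scale, and miR-27b-5p and miR-1303 fell by 0.95 (FDR 0.00423) and 0.74 (FDR 0.0377). miR-449c-5p had 0.79 there (FDR 0.370).

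The difference between the lines in the response to OD was tested as an interaction over 12 libraries, and it passed the FDR limit for 1.07% of 653 miRNAs tested, 7 in number, all of which were among the 40 changed in HT-29. For miR-4521 the Caco-2 controls were at 101, 147 and 157 CPM and the OD libraries, with a median of 131 CPM, lay within that range, while it fell in HT-29. The difference was −2.28 on the log2 scale (SE 0.25, FDR 3.33e-06). miR-483-3p was far more abundant in Caco-2, at 815, 751 and 841 CPM in controls and 722, 820 and 746 CPM with OD, and the difference in response was 0.93 (SE 0.18, FDR 0.00722). miR-30c-1-3p was at 14.6, 17.9 and 15.7 CPM in Caco-2 controls and 23, 20.3 and 20.3 CPM with OD, which did not pass the test there (log2 fold change 0.38, FDR 0.313), while it fell in HT-29 (difference −1.35, SE 0.27, FDR 0.00722). The Caco-2 cells were differentiated for 21 days, so line and culture state cannot be told apart.

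**Figure D5:**
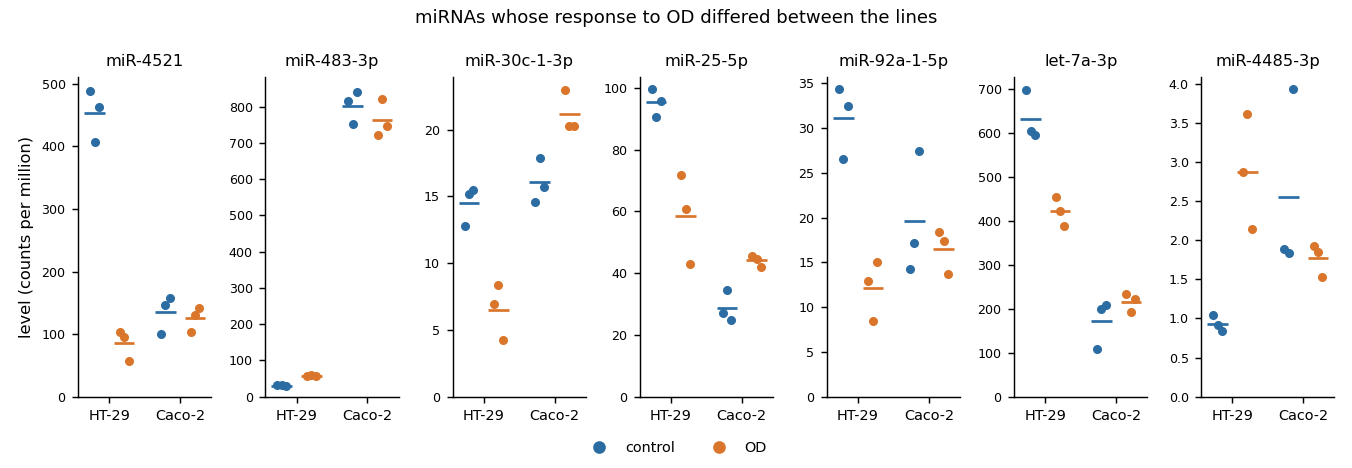
Levels in CPM of the 7 miRNAs whose response to OD differed between HT-29 and Caco-2, each on its own axis from 0. Points are libraries (blue control, orange OD) and bars are group means. miR-4521 falls in HT-29 and overlaps between the groups in Caco-2, and miR-30c-1-3p and miR-25-5p lie lower with OD in HT-29 and higher in Caco-2.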

How the data were processed

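Small RNA libraries were made from total RNA with a NEBNext kit and sequenced as single-end reads. The authors deposited unnormalised counts, by mature miRNA and by gene, and a table of log2 values, which recomputation showed to be log2(CPM + 1). The submitters' processing notes name FastQC 0.11.9, cutadapt 2.10, STAR 2.7.5b, Bowtie 1.1.1 and edgeR 3.30.3. The study's methods do not state the miRNA annotation or how reads with several matches were counted. The floor was 3 counts, for counting error only, since reads carried no molecular identifiers.

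Counts were tested with edgeR 4.0.16 in R 4.3.3 (TMM scaling, filterByExpr, two-sided quasi-likelihood F test, Benjamini-Hochberg adjustment over all features tested). Only the 6 libraries compared entered each fit between groups, and 12 the test of the difference between lines. Levels are CPM on TMM-scaled library sizes. SE was the absolute log2 fold change divided by the square root of F. Alternatives included DESeq2 1.42.0, limma 3.58.1 (limma-voom, and limma-trend on the deposited log2 table), other scalings and filters, thinning, the replicate block and leaving out each library. In simulated miRNA counts (589 tested, 197 changed), 88.9% of 2-fold and 99.0% of 4-fold changes passed. A larger share of miRNAs was changed there than in the data, and no pairing was simulated. These rates are thus not those of the real comparison.

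Deviations of same-numbered control and OD miRNA libraries correlated at 0.321, 0.268 and 0.111, so replicate numbers were taken to pair them. The main fit nonetheless left this pairing out, and its FDR values and calls are those of unpaired groups. The replicate block was fitted as an alternative only (55 miRNAs under the FDR limit and 13 called). Hosts were taken from GENCODE v44 on GRCh38. Named were called miRNAs with a mean of at least 50 counts and no overlap (12 per direction), otherwise the 10 lowest FDR per direction, the 10 most abundant, list members, partner arms and hosts. Other changed miRNAs were named after their values were seen. The comparison and the lists were chosen with earlier results of these data known.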

Additional observations from a re-analysis of the deposited data

Results flagged for a closer look

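For 7 miRNAs the response to OD, as log2 fold change in HT-29 minus that in Caco-2, differed between the lines by a test of the interaction. The differences were −2.28 for miR-4521, 0.93 for miR-483-3p, −1.35 for miR-30c-1-3p, −1.19 for miR-25-5p, −1.45 for miR-92a-1-5p, −1.0 for let-7a-3p and 1.94 for miR-4485-3p. Without HT-29 OD replicate 3 and Caco-2 control replicate 3, both shallow, the difference of miR-4485-3p had an FDR of 0.11 and those of the other 6 stayed under 0.05. For miR-4485-3p the FDR was also 0.0637 with library-size scaling and 0.118 with the replicate block. Line and culture state cannot be told apart in these values.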

How the results depend on the processing

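The 40 changed miRNAs kept their direction under every alternative that gave them a value, and miR-4521, miR-12135 and miR-210-3p passed the FDR limit in all 18. The counts depended on depth and tool. miRNAs called (higher and lower in parentheses) were 8 (3 and 5) with DESeq2, 3 (2 and 1) with limma-trend, 4 (2 and 2) with at least 10 counts in every library, 6 (2 and 4) with libraries thinned to the shallowest, 35 (13 and 22) with a 1.5-fold limit and 3 (1 and 2) with glmTreat. Those under the FDR limit were 24 with DESeq2 (8 higher), 16 with limma-trend (6 and 10), 19 with 10 counts (7 and 12), 11 thinned (3 and 8), and 8 higher with library-size scaling. The filters and thinning leave fewer miRNAs or counts, and otherwise the cause was not tested. Leaving out single libraries gave 11 to 21 called (4 to 11 higher, 7 to 12 lower) and 23 to 66 under the limit (5 to 27 higher, 15 to 39 lower). The libraries that moved these totals by over 1.5 times were OD replicate 1 (11 called and 23 under the limit without it), OD replicate 2 (23 under the limit) and control replicate 2 (66 under the limit).

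With the replicate block 28 higher miRNAs passed, and the calls it ended are given in the report. It changed no other call of the 18. For the difference between the lines, 9 were called with the block against 5. Of 35 host and processing genes tested 8 were called, beside 2574 of 15382 over all genes tested in the mRNA libraries. The 8 stayed within 6 to 8 without single mRNA libraries. They were 8 with the block, where numbers did not pair the samples (correlations −0.0778, −0.00579 and −0.00163). TMEM245 turned to −0.05 with library-size scaling.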
